A study of Mus musculus with 8 samples.

Results

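Transcripts of 35 genes that take glucose into the cell, break it down to pyruvate and direct the pyruvate to lactate or to the mitochondria were followed in neurospheres that lack FoxO3. The 35 genes were listed by symbol, from the glucose transporters through the enzymes of glycolysis to lactate dehydrogenase, the monocarboxylate transporters, the regulators of pyruvate dehydrogenase and the enzymes of the glycerol phosphate shuttle. Probe sets that carry a single one of these symbols in the platform annotation were taken, and where a gene had several, the one with the highest mean of the 8 arrays stood for it. In this way 33 of the 35 genes were measured, of 18194 genes in all. Eno1 and Mpc2, which encode the most widely expressed enolase and a subunit of the mitochondrial pyruvate carrier, have no such probe set and were not analysed here. For Gapdh an Affymetrix control probe set was used.

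The arrays held RNA from 4 FoxO3 null (FoxO3-/-) and 4 wild type (FoxO3+/+) samples of secondary neurospheres, which are clusters of neural stem and progenitor cells that regrow in suspension from dissociated spheres. All cells came from forebrains of FVB/N mice, and the labels used here give neither the age nor the sex of the animals. Both genotypes grew with the growth factors bFGF and EGF, each at 20 ng/ml, and spheres seeded at 50000 cells/ml were collected on day 6. Each genotype had 2 arrays in set 1 and 2 arrays in set 2, and the meaning of a set is not explained in the labels. Nothing says that the arrays of a set and genotype are separate cultures or mice, so the p-values below reflect the spread between arrays alone, and that spread may be technical. The labels describe the null allele no further.

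Glucose enters neural cells through facilitative transporters, is trapped by hexokinase and is committed to glycolysis by phosphofructokinase, the main control point of the pathway. Pyruvate is then reduced to lactate by lactate dehydrogenase and exported, or oxidised in the mitochondria unless pyruvate dehydrogenase kinases switch off the entry enzyme. Neural stem and progenitor cells are known for active glycolysis, FoxO factors for control of metabolic genes under low insulin signalling, and hypoxia-inducible factor (HIF) for induction of most glycolytic enzymes.

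Transcripts of both glucose transporters (Slc2a1 and Slc2a3), of the glycolytic enzymes Aldoa and Pgam1, of Pfkfb3, which makes an activator of glycolysis, and of the kinase Pdk4 were lower in FoxO3 null spheres, and none of the 33 genes was higher by the test. Of the 33 genes, 6 fell and 0 rose in the comparison of all arrays with set as a term (limma, Benjamini-Hochberg adjusted p under 0.05 over all genes), where 1.17% of all genes were lower and 0.429% higher. Log2 fold changes, given throughout as FoxO3 null minus wild type, ran from -1.03 to 0.26 over the 33 genes, with a median of -0.15 against 0.0091 over all genes. In sign, 26 of the 33 were negative and 7 positive, whereas 8330 of 18194 genes were negative. Every FoxO3 null array lay below every wild type array for 5 of the 33 genes, Slc2a1, Aldoc, Pgk1, Pgam1 and Ldha, and above for 0, while 1.69% of all genes had the first arrangement and 2.02% the second. For Aldoc the margin was bare, at 12.968 against 12.969. The count of 6 was 0 when the arrays of each set and genotype were averaged, a fit in which 0 of all 18194 genes passed, and 0 with the mean of Y-linked genes as a further term, where 4 of all genes fell and 4 rose; Foxo3 itself did not pass in either. With a variance trend 12 members fell, among 387 of all genes. Bulk RNA cannot tell fewer cells that express a gene from less of its RNA per cell.

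**Figure D1:**
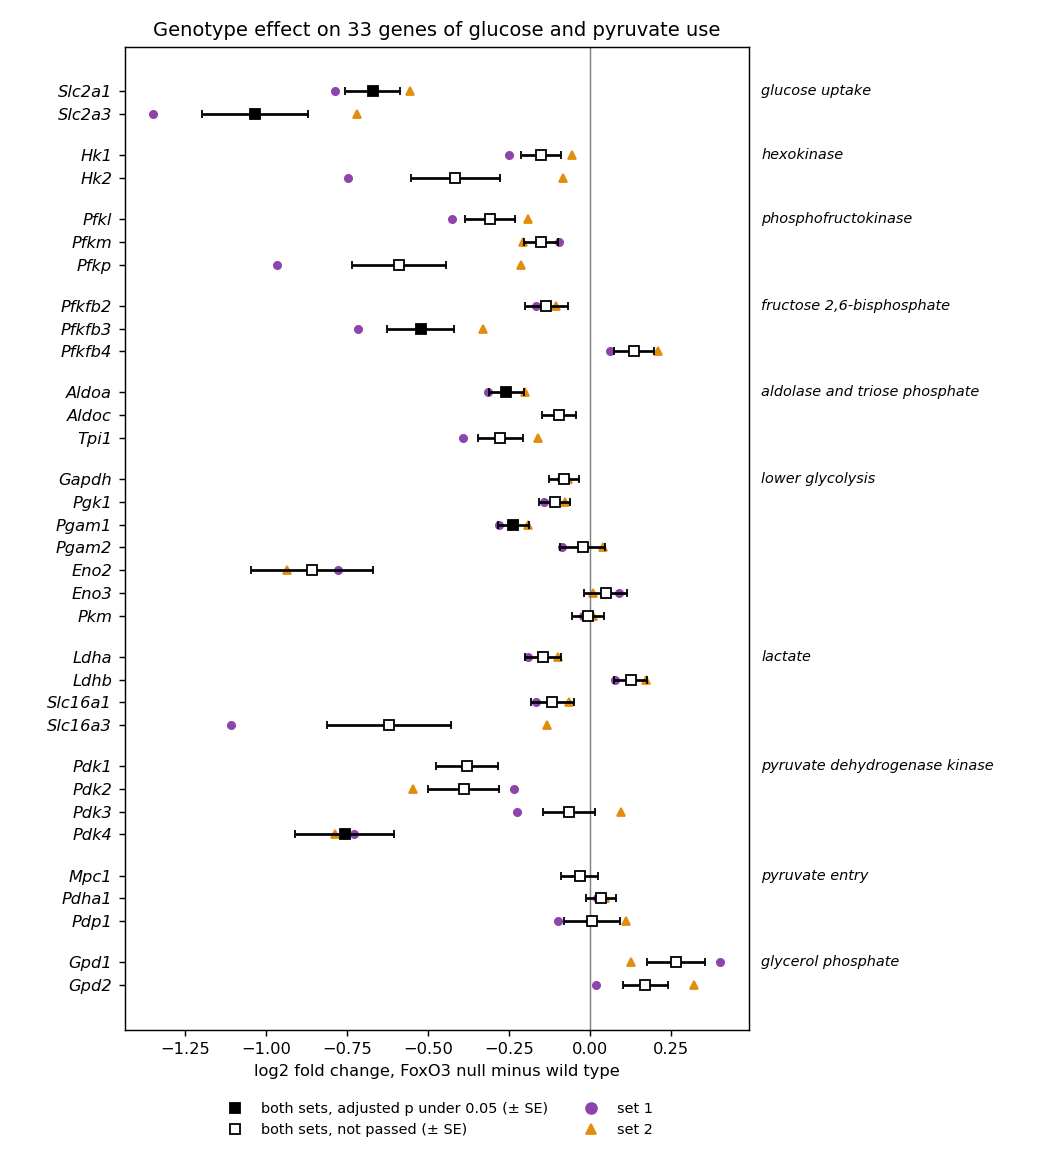
Log2 fold change (FoxO3 null minus wild type) of the 33 genes, from glucose uptake at the top to the glycerol phosphate shuttle at the bottom. Squares with bars show the estimate over both sets ± SE, filled where the adjusted p was under 0.05; circles show set 1 and triangles set 2. The 6 filled squares are all negative, and most set 1 values lie left of the set 2 values.

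Foxo3, the targeted gene, was checked first. In the order set 1 array 1, set 1 array 2, set 2 array 1 and set 2 array 2, which all lists of 4 values below follow, its log2 values were 8.86, 9.08, 9.05 and 9.14 in FoxO3 null arrays and 10.24, 10.26, 10.32 and 9.997 in wild type arrays. The genotypes did not overlap, and Foxo3 fell by 1.17 ± 0.084 (SE, limma adjusted p = 0.00028), so that null arrays held 44.5% of the signal of wild type arrays. The deleted part of the gene is not described, and a probe set outside it would check nothing.

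The sequences before the transcription starts of 7 of the genes are shown because they differ in their matches to the core of the HIF binding site, ACGTG or GCGTG on either strand. They are the 5 genes that fell and have such a sequence in the table, and the pair Ldha and Ldhb, which encode the subunits of lactate dehydrogenase, and come from RefSeq (assembly GRCm38.p6). Each run gives the 250 bases before the first annotated start of the gene, 5′ to 3′ on the gene's strand, in lower case with both motifs in capitals.
Slc2a1, chr4:119108495-119108744, plus strand: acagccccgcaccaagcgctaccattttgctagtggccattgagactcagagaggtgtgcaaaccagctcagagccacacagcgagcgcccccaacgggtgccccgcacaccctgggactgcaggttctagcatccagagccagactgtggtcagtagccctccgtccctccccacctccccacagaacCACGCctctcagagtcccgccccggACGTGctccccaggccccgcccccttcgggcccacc
Pfkfb3, chr2:11553930-11554179, minus strand: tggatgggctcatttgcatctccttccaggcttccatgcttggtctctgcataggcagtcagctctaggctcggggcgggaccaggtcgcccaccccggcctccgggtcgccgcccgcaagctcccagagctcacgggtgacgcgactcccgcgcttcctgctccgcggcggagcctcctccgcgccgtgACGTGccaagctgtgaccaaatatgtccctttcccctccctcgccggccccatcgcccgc
Aldoa, chr7:126800448-126800697, minus strand: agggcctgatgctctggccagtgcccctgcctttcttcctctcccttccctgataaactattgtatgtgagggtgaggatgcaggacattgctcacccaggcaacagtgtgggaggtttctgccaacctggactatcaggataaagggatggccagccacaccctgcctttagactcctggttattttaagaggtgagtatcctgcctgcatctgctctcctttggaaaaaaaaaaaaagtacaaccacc
Pgam1, chr19:41911621-41911870, plus strand: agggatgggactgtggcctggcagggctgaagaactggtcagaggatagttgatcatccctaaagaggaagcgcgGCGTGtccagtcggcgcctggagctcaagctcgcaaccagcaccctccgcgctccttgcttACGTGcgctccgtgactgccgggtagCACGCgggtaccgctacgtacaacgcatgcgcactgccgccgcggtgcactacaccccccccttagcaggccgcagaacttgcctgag
Pdk4, chr6:5496279-5496528, minus strand: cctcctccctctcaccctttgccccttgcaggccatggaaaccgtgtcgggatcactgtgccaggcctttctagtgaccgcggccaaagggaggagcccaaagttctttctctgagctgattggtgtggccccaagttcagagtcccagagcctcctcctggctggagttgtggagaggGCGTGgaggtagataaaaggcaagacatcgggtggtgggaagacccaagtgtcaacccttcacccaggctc
Ldha, chr7:46845554-46845803, plus strand: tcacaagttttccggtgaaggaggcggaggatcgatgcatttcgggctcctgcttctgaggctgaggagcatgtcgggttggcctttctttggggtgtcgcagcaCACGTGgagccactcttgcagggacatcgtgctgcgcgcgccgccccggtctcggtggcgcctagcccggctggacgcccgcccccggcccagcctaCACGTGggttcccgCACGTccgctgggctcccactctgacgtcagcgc
Ldhb, chr6:142507958-142508207, minus strand: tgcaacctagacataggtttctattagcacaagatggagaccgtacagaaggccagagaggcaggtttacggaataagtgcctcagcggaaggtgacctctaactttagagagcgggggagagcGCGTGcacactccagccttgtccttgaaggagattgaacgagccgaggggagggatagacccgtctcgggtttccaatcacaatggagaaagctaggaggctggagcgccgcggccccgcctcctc
Slc2a1 holds 1 ACGTG match, which begins 36 bases before the start, Pfkfb3 1 match at 60 bases and Pgam1 1 match at 114 bases. Ldha holds 5 matches, of which 4 are the overlapping strands of 2 copies of CACGTG, the palindromic E-box that Myc-like factors bind. Pdk4 and Ldhb hold 0 ACGTG matches and 1 GCGTG match each, and Aldoa holds 0 of either here, though its windows at later starts hold ACGTG. At a later start, the window of Pfkfb3 holds CACGTG and that of Ldha holds 0 ACGTG matches. The FoxO core motif GTAAACA is in 0 of the 7 sequences.

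Over all members the same motifs were counted in RefSeq windows from 250 bases before to 50 bases after each start, on both strands. Of the 33 genes, 30 matched the table, with 46 windows; Slc2a3, Gpd1 and Pdp1 have none there. Windows of 1 gene can overlap and were counted separately. ACGTG was found in 22 of the 46 windows (47.8%), against 19.6% of all 32851 windows. By gene, it was found for 18 of the 30 members, and for 4 of the 5 among them that fell, Aldoa through later starts only. The share by gene was not counted over all genes, and a gene with several windows has more chances of a match. GCGTG was found in 24 of the 46 (52.2%), against 32.4% of all windows, and either of the pair in 35 of the 46 (76.1%), against 43.8%. CACGTG, which contains ACGTG, was in 6 of the 46 (13.0%), against 7.15%. GTAAACA was in 1 of the 46 (2.17%), in the gene Aldoc, against 3.65%. The members' windows had a median GC content of 61.2% against 52.7% over all windows, and its part in the motif shares was not tested. A match describes letters in a window and says nothing of binding.

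Both glucose transporters fell in FoxO3 null spheres. Slc2a1 encodes GLUT1, the basal transporter of most cells and of the blood-brain barrier. Its log2 values were 10.64, 10.34, 10.93 and 10.82 in FoxO3 null arrays, against 11.40, 11.16, 11.43 and 11.43 in wild type arrays. All 4 FoxO3 null arrays lay below all 4 wild type arrays. Slc2a1 averaged 10.68 ± 0.26 in FoxO3 null and 11.35 ± 0.13 in wild type arrays (log2, SD, n = 4 each), a difference of -0.67 ± 0.085 (SE, limma adjusted p = 0.0047), and null arrays held 62.8% of the wild type signal. It is the one member that passed in the contrast of each set, where it fell by 0.79 in set 1 (adjusted p = 0.0125) and by 0.55 in set 2 (adjusted p = 0.0379), and over both sets it passed with any 1 array left out (adjusted p of 0.00968 to 0.0195). Its set 1 call was lost without null array 1_2 or wild type array 1_1, and its set 2 call without any 1 of the 4 arrays of set 2.

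Slc2a3 encodes GLUT3, the high-affinity transporter best known from neurons, and had the largest fall of the 33 genes. It measured 9.54, 8.82, 10.42 and 10.25 in FoxO3 null arrays and 10.69, 10.38, 11.07 and 11.04 in wild type arrays. Within each set both FoxO3 null arrays lay below both wild type arrays, but across sets the genotypes overlapped by a small margin. The difference was -1.03 ± 0.16 (SE, limma adjusted p = 0.0141), or 48.8% of the wild type signal, with -1.35 in set 1 (adjusted p = 0.0125) and -0.72 in set 2 (adjusted p = 0.106). Without wild type array 1_1 it missed the threshold (adjusted p = 0.0529). All 3 probe sets of Slc2a1 and all 4 of Slc2a3 passed in a test of every probe set on the array, with changes of -0.67 to -0.59 and of -1.04 to -0.53.

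**Figure D2:**
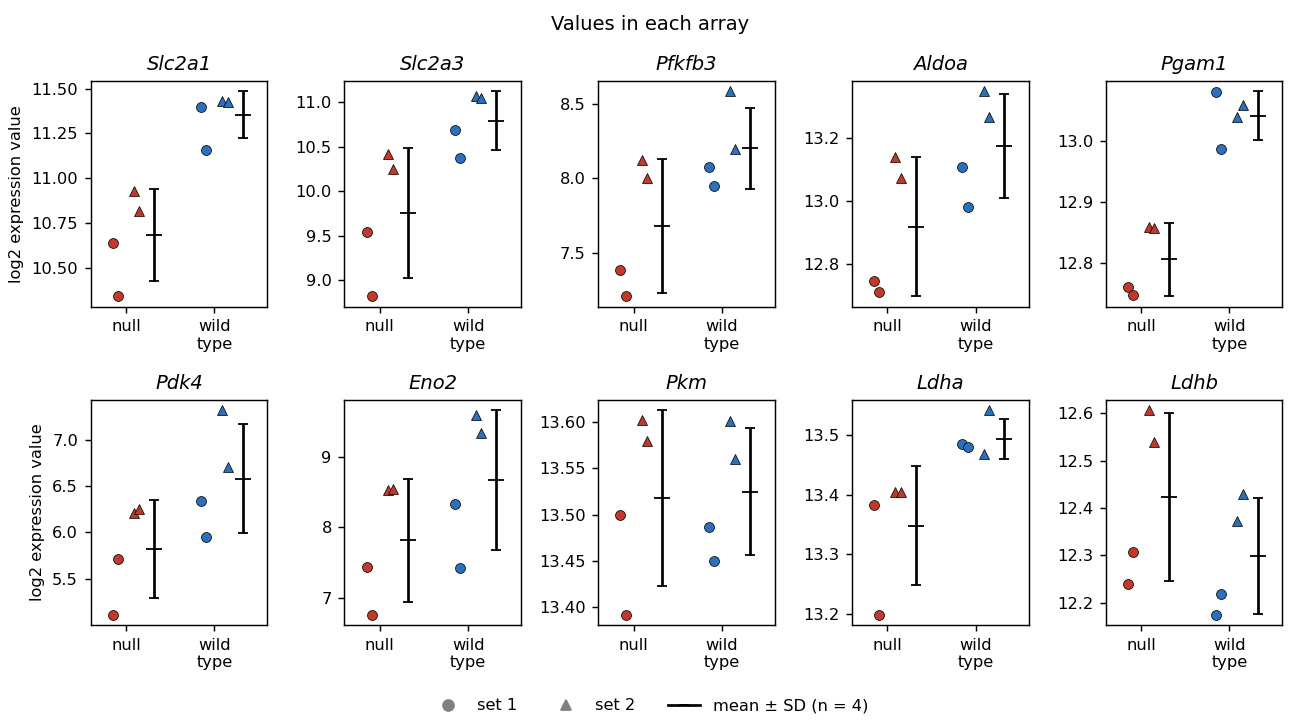
Log2 expression value in each array for the 6 genes that fell and for Eno2, Pkm, Ldha and Ldhb. FoxO3 null arrays are left and wild type arrays right in each panel, circles are set 1, triangles set 2, and the bar is the mean ± SD of 4 arrays; vertical scales differ and do not start at 0. Slc2a1, Pgam1 and Ldha show no overlap between genotypes, while Pkm arrays overlap.

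Hexokinase phosphorylates glucose and so holds it in the cell. Hk1, the isoenzyme typical of brain, had log2 values of 10.51, 10.32, 10.98 and 11.01 in FoxO3 null arrays and 10.68, 10.65, 11.04 and 11.06 in wild type arrays. Null arrays were the lower ones within each set, and the fold change of -0.15 did not pass (limma adjusted p = 0.271). Hk2, the inducible isoenzyme of muscle and many proliferating cells, measured 9.84, 9.37, 9.91 and 9.77 in FoxO3 null arrays against 10.39, 10.32, 9.90 and 9.94 in wild type arrays. The separation was in set 1, where Hk2 fell by 0.75 (limma adjusted p = 0.0335), while the arrays of set 2 overlapped with a change of -0.084. The set 1 call of Hk2 was lost where that set was tested alone, and also without any 1 array of set 2. Over both sets the change of -0.42 ± 0.14 did not pass (adjusted p = 0.183).

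Phosphofructokinase exists as liver, muscle and platelet subunits, named after the tissues in which they prevail. Pfkl, the liver subunit, measured 10.94, 10.67, 11.30 and 11.24 in FoxO3 null arrays and 11.33, 11.13, 11.48 and 11.45 in wild type arrays. Pfkm, the muscle subunit, gave 10.73, 10.78, 11.01 and 11.003 in FoxO3 null and 10.86, 10.85, 11.28 and 11.15 in wild type arrays. For both subunits the null arrays were the lower ones within each set, and neither change passed over both sets (-0.31 for Pfkl, limma adjusted p = 0.0895, and -0.15 for Pfkm, adjusted p = 0.205). Pfkp, the platelet subunit, measured 8.43, 8.03, 9.70 and 9.71 in FoxO3 null arrays, against 9.29, 9.10, 9.99 and 9.84 in wild type arrays. It fell by 0.97 in set 1 (limma adjusted p = 0.00752), had a change of -0.21 in set 2 (adjusted p = 0.488) and did not pass over both sets (-0.59 ± 0.14, adjusted p = 0.0838).

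The Pfkfb genes encode bifunctional enzymes that make or remove the sugar bisphosphate that activates phosphofructokinase. Pfkfb3, whose kinase activity prevails, was the one of them that fell. It measured 7.38, 7.21, 8.12 and 7.999 in FoxO3 null arrays and 8.07, 7.95, 8.58 and 8.19 in wild type arrays. Null arrays lay below wild type arrays within each set and overlapped across sets, with means of 7.68 ± 0.45 in FoxO3 null and 8.20 ± 0.27 in wild type arrays (log2, SD, n = 4 each). The change was -0.52 ± 0.10 (SE, limma adjusted p = 0.0355), with -0.72 in set 1 (adjusted p = 0.0298) and -0.33 in set 2 (adjusted p = 0.254). With 1 array left out the call remained in 2 of 8 cases, without null array 2_1 and without wild type array 2_2, and the adjusted p ran from 0.00663 to 0.129. Its other, dimmer probe set had a change of -0.12.

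Pfkfb2, the isoenzyme of heart, had log2 values of 7.54, 7.81, 8.16 and 8.12 in FoxO3 null arrays and 7.87, 7.81, 8.31 and 8.17 in wild type arrays. Null arrays were the lower ones within each set, in set 1 by a bare margin (7.807 in null array 1_2 against 7.811 in wild type array 1_2). The change of -0.14 for Pfkfb2 did not pass (limma adjusted p = 0.368). Its 3 dimmer probe sets had positive changes of 0.055 to 0.12. Pfkfb4, first described in testis, measured 7.15, 6.96, 7.51 and 7.49 in FoxO3 null arrays and 7.05, 6.94, 7.31 and 7.27 in wild type arrays. Null arrays were the higher ones in set 2 and overlapped in set 1, and the change of 0.13 did not pass (limma adjusted p = 0.324).

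Aldolase splits the sugar bisphosphate into triose phosphates, and Aldoa, the general isoenzyme, fell by a small amount. It measured 12.75, 12.71, 13.14 and 13.07 in FoxO3 null arrays and 13.11, 12.98, 13.35 and 13.27 in wild type arrays. Within each set null arrays were lower, and the change of -0.26 ± 0.055 left 83.6% of the wild type signal (limma adjusted p = 0.0485). The adjusted p lay just under the threshold, and the call was lost when any 1 of the 8 arrays was left out (0.0607 to 0.144). The other 4 probe sets of Aldoa gave -0.24 to -0.18; the probe sets are of a type that Affymetrix marks as open to cross-hybridisation. Aldoc, the isoenzyme of brain and astrocytes, measured 12.96, 12.90, 12.97 and 12.90 in FoxO3 null and 12.98, 13.07, 12.97 and 13.09 in wild type arrays. The genotypes were apart by a bare margin, with null array 2_1 at 12.968 and wild type array 2_1 at 12.969. Its other, dimmer probe set overlapped between genotypes, and the change did not pass (-0.10, limma adjusted p = 0.421). Tpi1, which interconverts the triose phosphates, did not pass (-0.28 ± 0.069, adjusted p = 0.0864), whereas 1 of its 3 probe sets fell where every probe set was tested (-0.38, adjusted p = 0.028).

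Among the 7 measured genes of the lower part of glycolysis, Pgam1 passed. Pgam1 encodes the phosphoglycerate mutase of brain and most other tissues. Its log2 values were 12.76, 12.75, 12.86 and 12.86 in FoxO3 null arrays, against 13.08, 12.99, 13.04 and 13.06 in wild type arrays. The genotypes did not overlap, the difference was -0.24 ± 0.049 (SE, limma adjusted p = 0.0429) and 84.9% of the wild type signal was left. As with Aldoa, the call was lost when any 1 of the 8 arrays was left out (adjusted p of 0.073 to 0.131).

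Eno2, the enolase known as a neuronal marker, had a larger but more variable difference. It measured 7.44, 6.75, 8.53 and 8.54 in FoxO3 null arrays and 8.33, 7.42, 9.60 and 9.34 in wild type arrays. Null arrays were lower in set 2 and overlapped in set 1, where null array 1_1 just exceeded wild type array 1_2. The change of -0.86 ± 0.19 missed the threshold (limma adjusted p = 0.0558) and passed without null array 1_1 or without wild type array 1_2. Pkm, which encodes the pyruvate kinase of most tissues, had a change of -0.0065 (adjusted p = 0.973). Gapdh and Pgk1, which catalyse the first energy-yielding steps, had changes of -0.08 and -0.11. Pgam2 and Eno3, the muscle isoenzymes, had changes of -0.023 and 0.048, and none of these 5 passed.

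Gapdh also serves as an RNA quality control on this array. The 3' minus 5' difference of its control probe sets averaged -0.10 ± 0.012 in FoxO3 null and -0.082 ± 0.015 in wild type arrays (log2, SD, n = 4 each, two-sided exact permutation p = 0.114, smallest possible 0.0286). The same difference for the actin controls was 0.466, 0.489, 0.33 and 0.364 in FoxO3 null and 0.545, 0.515, 0.39 and 0.359 in wild type arrays (exact permutation p = 0.514). It was higher in every set 1 array than in every set 2 array, and its part in the differences between sets was not tested. All 3 Gapdh control probe sets gave changes of -0.098 to -0.080. The 3 probe sets that the annotation shares between Gapdh and its pseudogenes gave -0.25 to -0.049, and none passed.

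At the branch to lactate the subunits of lactate dehydrogenase had opposite signs, and neither passed. Ldha, the subunit that favours reduction of pyruvate, measured 13.38, 13.20, 13.40 and 13.40 in FoxO3 null arrays and 13.48, 13.48, 13.47 and 13.54 in wild type arrays. All null arrays lay below all wild type arrays, with null array 1_2 apart from the other three, and the change of -0.15 had a limma adjusted p of 0.245. Ldhb, the subunit of oxidative tissues, measured 12.24, 12.31, 12.61 and 12.54 in FoxO3 null arrays and 12.18, 12.22, 12.37 and 12.43 in wild type arrays. Null arrays were the higher ones within each set, the change was 0.12 (limma adjusted p = 0.271), and all 4 Ldhb probe sets were positive, at 0.12 to 0.16.

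The monocarboxylate transporters carry lactate and pyruvate across the plasma membrane. Slc16a1, which encodes the widely expressed MCT1, measured 10.96, 10.92, 11.32 and 11.46 in FoxO3 null arrays and 11.17, 11.05, 11.57 and 11.35 in wild type arrays. Null arrays were lower in set 1 and overlapped in set 2, and the change of -0.12 did not pass (limma adjusted p = 0.443). Slc16a3, which encodes MCT4, the exporter of glycolytic cells and astrocytes, measured 7.21, 6.65, 8.34 and 8.02 in FoxO3 null arrays and 8.16, 7.93, 8.24 and 8.38 in wild type arrays. It fell by 1.11 in set 1 (limma adjusted p = 0.019), while the arrays of set 2 overlapped (-0.13), and over both sets it did not pass (-0.62 ± 0.19, adjusted p = 0.156). Its set 1 call was lost where that set was tested alone.

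The pyruvate dehydrogenase kinases inactivate the enzyme that feeds pyruvate into the citric acid cycle. Pdk4, the kinase that fasting and FoxO factors are known to induce in muscle, was the one of the 4 that passed. It measured 5.11, 5.71, 6.21 and 6.25 in FoxO3 null arrays and 6.34, 5.95, 7.32 and 6.71 in wild type arrays. Null arrays lay below wild type arrays within each set and overlapped across sets, and the change of -0.76 ± 0.15 left 59.2% of the wild type signal (SE, limma adjusted p = 0.0387). The changes were alike in size in set 1 (-0.73) and set 2 (-0.79), and neither passed alone (adjusted p of 0.225 and 0.128). With 1 array left out the call remained in 3 of 8 cases, without null array 1_2, wild type array 1_2 or wild type array 2_2. The signal was low: all FoxO3 null arrays lay below the array medians of 6.27 to 6.31. By mean level Pdk4 ranked at percentile 36.2 of all genes tested.

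Pdk1, the kinase that HIF is known to induce, measured 9.30, 9.03, 9.92 and 10.02 in FoxO3 null arrays and 9.78, 9.31, 10.34 and 10.35 in wild type arrays. Its change of -0.38 did not pass (limma adjusted p = 0.091), and its 3 dimmer probe sets gave -0.77, -0.51 and -0.33. Pdk2, a widely expressed kinase, measured 7.42, 7.61, 8.15 and 8.29 in FoxO3 null arrays and 7.83, 7.67, 9.01 and 8.52 in wild type arrays. For Pdk1 and Pdk2 the null arrays were lower within each set, and Pdk2 did not pass either (-0.39, limma adjusted p = 0.125). Pdk3 measured 9.34, 9.16, 9.64 and 9.60 in FoxO3 null arrays and 9.56, 9.39, 9.47 and 9.57 in wild type arrays. Its null arrays were the lower ones in set 1 and the higher ones in set 2, with a change of -0.066 over both (limma adjusted p = 0.764).

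Genes of pyruvate entry into the mitochondria had changes close to 0. Mpc1, a subunit of the mitochondrial pyruvate carrier, had a change of -0.032, Pdha1, the catalytic subunit of pyruvate dehydrogenase, 0.034, and Pdp1, the phosphatase that reactivates it, 0.0053, with limma adjusted p of 0.798 to 0.986. The largest positive change of the 33 genes was in Gpd1, the cytosolic enzyme that makes glycerol phosphate from a glycolytic intermediate. Gpd1 measured 9.96, 10.01, 11.23 and 11.54 in FoxO3 null arrays and 9.47, 9.70, 11.32 and 11.19 in wild type arrays. Null arrays were the higher ones in set 1 and overlapped in set 2, and the change of 0.26 ± 0.09 did not pass (limma adjusted p = 0.193). Gpd2, its mitochondrial partner in the shuttle, measured 10.69, 10.79, 10.86 and 10.77 in FoxO3 null arrays and 10.69, 10.75, 10.51 and 10.48 in wild type arrays. Null arrays were higher in set 2 and overlapped in set 1, and the change of 0.17 did not pass (limma adjusted p = 0.274).

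**Figure D3:**
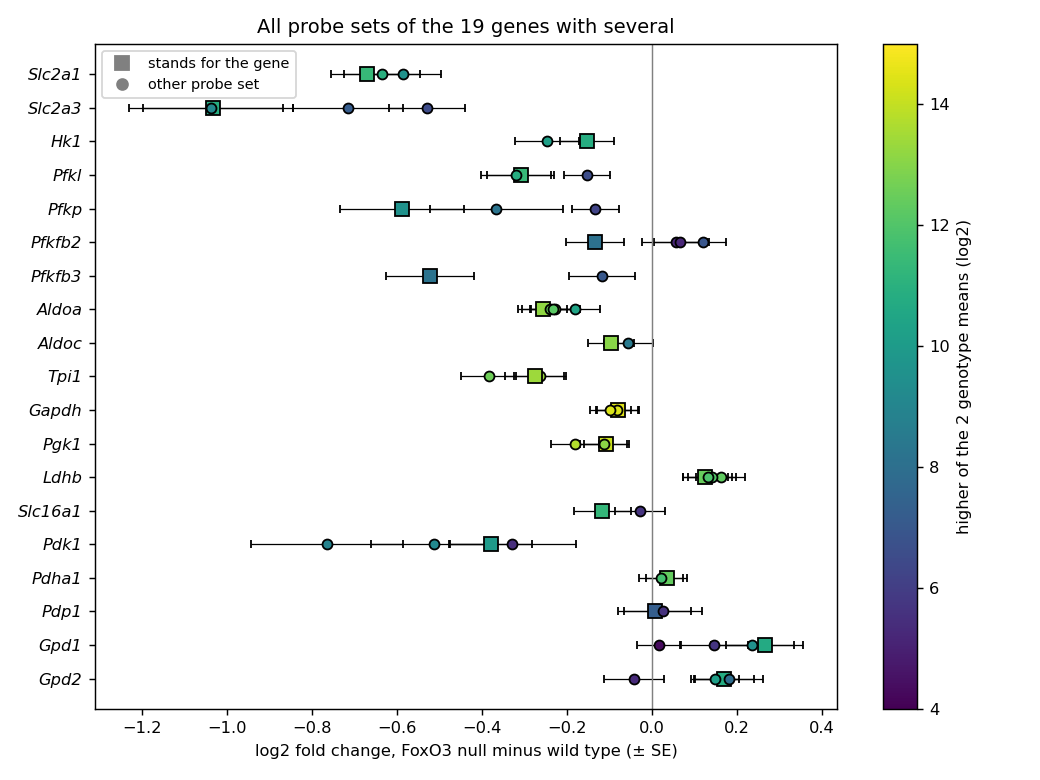
Log2 fold change ± SE (FoxO3 null minus wild type) of every probe set of the 19 genes that have more than 1, with a square for the probe set that stands for the gene and colour for the higher of its 2 genotype means. All probe sets of Slc2a1 and Slc2a3 lie below -0.5, the 4 of Ldhb above 0, and those of Pfkfb2 on both sides of 0.

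The 33 genes have 73 probe sets, and 19 of the genes have several. When all 45040 probe sets were tested together, 8 of the 73 fell and 0 rose. These were the 7 of both glucose transporters and 1 of Tpi1, so Pfkfb3, Aldoa, Pgam1 and Pdk4 did not pass where more probe sets shared the adjustment.

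Changes were more negative in set 1 than in set 2 for most genes. In set 1 the median change of the 33 genes was -0.19 and 27 were negative, against medians of 0.015 in set 1 and 0.0024 in set 2 over all genes. In set 2 their median was -0.098 and 23 were negative. Slc2a1, Slc2a3, Hk2, Pfkp, Pfkfb3 and Slc16a3 fell in set 1, 6 of 33 where 0.572% of all genes were lower, and 0 rose where 0.17% were higher. In set 2 Slc2a1 fell, 1 of 33 where 1.21% of all genes were lower, and 0 rose where 0.715% were higher. The set 1 count dropped to 0 without wild type array 1_1 and to 2 without null array 1_2 or without wild type array 1_2. The set 2 count was 0 without any 1 of null arrays 2_1 and 2_2 and wild type array 2_1, and 2 without null array 1_1 or 1_2. Without wild type array 2_2 it was again 1, but the gene was Pdk2.

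The difference between sets was tested itself. The effect was more negative in set 1 than in set 2 for 25 of the 33 genes, against 8708 of 18194 genes. No gene of the 33 passed the genotype-by-set test (0 of 33, where 0.187% of all genes passed, limma with Benjamini-Hochberg adjustment), and 6 were at an unadjusted p under 0.05. The largest such differences, set 2 minus set 1, were 0.98 for Slc16a3 (adjusted p = 0.203), 0.75 for Pfkp (adjusted p = 0.183), 0.66 for Hk2 (adjusted p = 0.296) and 0.63 for Slc2a3 (adjusted p = 0.553). With a trend in the variance Hk2, Pfkp and Slc16a3 passed.

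**Figure D4:**
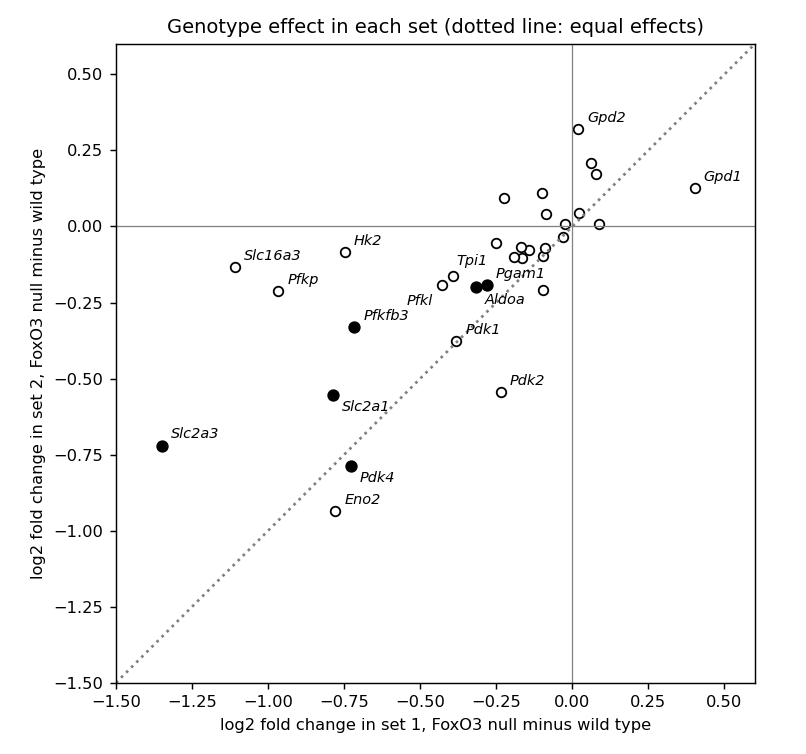
Log2 fold change (FoxO3 null minus wild type) in set 1 on the horizontal and in set 2 on the vertical axis, 1 point per gene, filled for the 6 genes that fell over both sets. Points above the dotted line had the more negative change in set 1: Slc16a3, Pfkp, Hk2 and Slc2a3 lie farthest above it, while Pdk4 lies near it.

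Irrespective of genotype, most of the genes were higher in set 2. Of the 33, 20 were higher and 1, Pgam2, lower in set 2 than in set 1 by the set term of the same fit, where 22.2% of all genes were higher and 21.6% lower. The largest set differences were 1.54 for Gpd1, 1.51 for Eno2 and 1.10 for Pfkp on the log2 scale. For Pfkp, which fell in set 1, wild type arrays averaged 9.20 in set 1 and 9.92 in set 2.

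Isoenzymes of one step were set against each other within each array for 11 pairs; the pair of Eno2 and Eno1 could not be formed. None of the 11 passed (two-sided exact permutation tests over 8 arrays, Benjamini-Hochberg over the pairs, smallest p possible 0.0286). Adjusted over 11 pairs, 1 pair alone at this smallest p has an adjusted p of 0.314. A single pair therefore could not pass, and the lack of passes says little about the pairs. These arrangements also do not keep the sets apart. The log2 difference of Pfkfb3 and Pfkfb2 was -0.15, -0.60, -0.041 and -0.12 in FoxO3 null arrays and 0.21, 0.14, 0.27 and 0.019 in wild type arrays. It was negative in all null and positive in all wild type arrays, a change of -0.39 with the smallest exact p possible (0.0286) and an adjusted p of 0.314. The log2 difference of Ldha and Ldhb was 1.14, 0.89, 0.80 and 0.86 in FoxO3 null arrays and 1.31, 1.26, 1.09 and 1.11 in wild type arrays. Null arrays were lower within each set and overlapped across sets, with a change of -0.27 in each set and over both (exact p = 0.0857, adjusted p = 0.314). Permuted within sets, this pair, Pfkfb3 against Pfkfb2 and Slc2a3 against Slc2a1 had the smallest p that 36 arrangements allow (0.0556, adjusted p = 0.204), so no pair could pass at 0.05 there. Changes of the other pairs ran from -0.50 for Slc16a3 against Slc16a1 to 0.27 for Pfkfb4 against Pfkfb2, with adjusted p of 0.314 to 0.943.

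**Figure D5:**
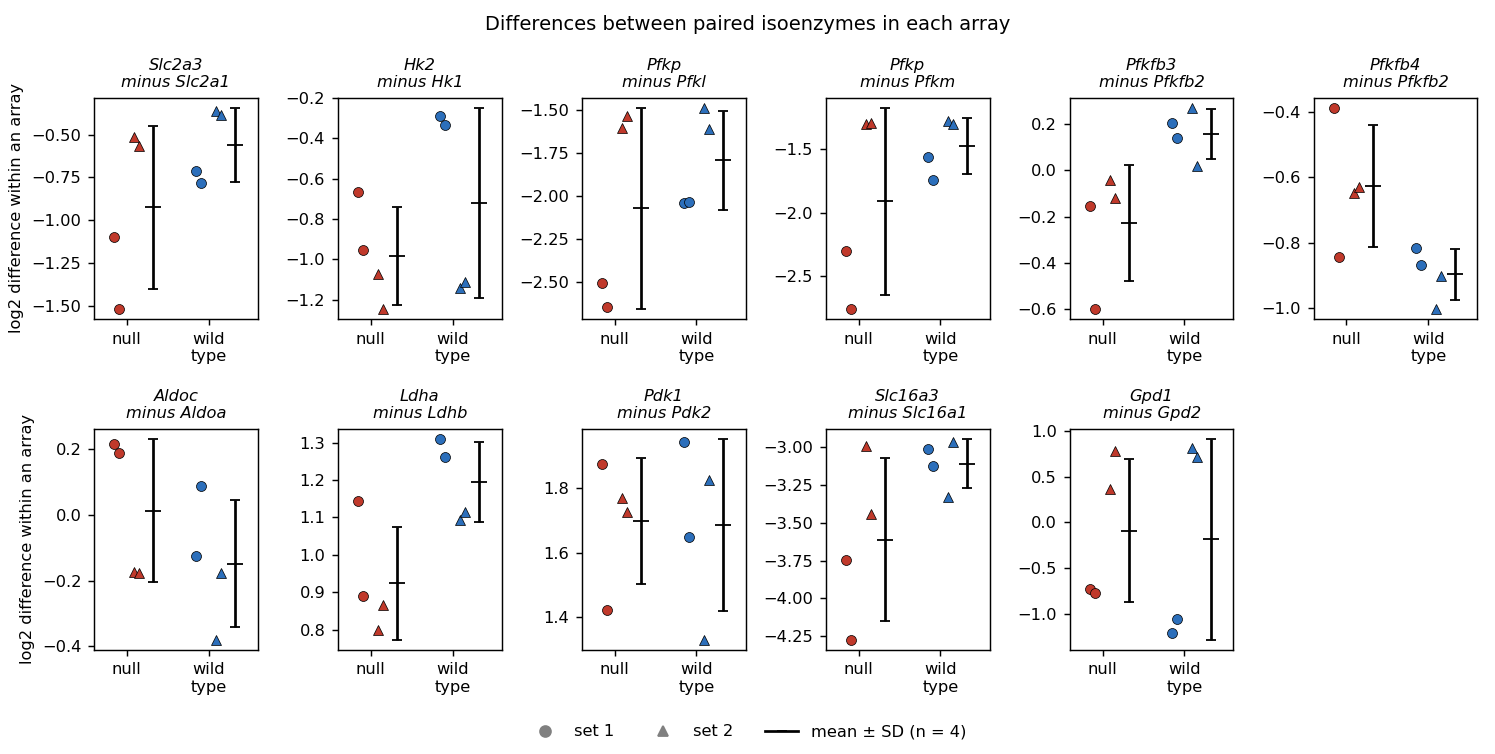
Log2 difference between paired isoenzymes within each array, FoxO3 null left and wild type right in each of 11 panels, with circles for set 1, triangles for set 2 and the mean ± SD of 4 arrays. The panel of Pfkfb3 minus Pfkfb2 shows all null arrays below all wild type arrays; in the other panels the genotypes overlap.

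Beyond the 35 members, 49 other genes of glucose and pyruvate handling were listed. Of these 45 were measured, 1 fell and 0 rose, where 1.17% of all genes were lower and 0.429% higher, with a median change of -0.0015 and 23 negative. The 1 that fell was Pgm1, phosphoglucomutase, which links glycogen and galactose to glycolysis. Pgm1 measured 10.65, 10.52, 11.18 and 11.07 in FoxO3 null arrays and 11.08, 11.02, 11.33 and 11.38 in wild type arrays. Null arrays were lower within each set, with a change of -0.35 ± 0.065 (SE, limma adjusted p = 0.0286). The count of 1 for this list was 0 with averaged arrays, 0 with the Y-linked term and 2 with a variance trend. With any 1 array left out other than null array 2_1 it was 0.

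Regulators of glycolytic genes gave 1 fall among 17 measured of 19 listed, where 1.17% of all genes were lower, with a median change of 0.016. It was Txnip, which encodes an inhibitor of thioredoxin that also limits glucose uptake. Txnip measured 8.22, 8.28, 8.20 and 8.45 in FoxO3 null arrays and 8.99, 8.73, 9.19 and 8.61 in wild type arrays. All null arrays lay below all wild type arrays, and the change was -0.59 ± 0.12 (SE, limma adjusted p = 0.0339). The count of 1 for this list was 0 with averaged arrays, 0 with the Y-linked term and 1 with a variance trend. With any 1 array left out other than wild type array 2_2 it was 0.

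Of hypoxia and HIF genes outside glycolysis, 26 were listed and 25 measured. In FoxO3 null arrays 8 fell and 0 rose, where 1.17% of all genes were lower and 0.429% higher, with 23 negative and a median change of -0.42 against 0.0091 over all genes. The count of 8 was 0 with averaged arrays, 2 with the Y-linked term, 14 with a variance trend and 4 to 9 with 1 array left out, lowest without null array 2_2, wild type array 1_1 or wild type array 2_1. The 6 with the smallest p were Car12, a carbonic anhydrase (-0.68), Mxi1, a Myc antagonist (-0.50), and Adm, the vasodilator adrenomedullin (-0.55). They also include Ddit4, a brake on mTORC1 (-0.90), Vegfa, the vascular growth factor (-0.84), and P4ha1, a collagen hydroxylase (-0.42), with limma adjusted p of 0.00201 to 0.0213. The median of this list was -0.53 in set 1 and -0.30 in set 2. Its mean level per array ran from 9.29 to 9.74 in FoxO3 null and from 9.92 to 10.06 in wild type arrays.

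Other measures moved with genotype or set beside these genes, and their part in the falls was not tested except where a value is given. Markers that passed are named here after their values were seen. Over all genes 1.17% were lower and 0.429% higher. Markers of oligodendrocyte progenitors fell in 4 of 6 cases (Pdgfra, Cspg4, Sox10 and Gpr17; 0 with the Y-linked term and 2 or 3 with 1 array left out), with a mean level of 9.35 to 10.02 in FoxO3 null and 9.74 to 10.36 in wild type arrays. Astrocyte markers fell in 2 of 7, Slc1a2 and Apoe (list means 10.09 to 10.62 against 10.20 to 10.88), and neuronal markers in 1 of 9, Gad1 (7.09 to 7.29 against 7.25 to 7.31). In sign, 4 of the 7 astrocyte markers were negative and 3 positive, and 4 of the 9 neuronal markers were negative and 5 positive. With 1 array left out 1 or 2 fell in each of these lists, and with the Y-linked term 0. Of 9 neural stem and progenitor markers 1 rose, Nes, while 6 were negative and 3 positive in sign. The list averaged 10.67 to 10.82 in FoxO3 null and 10.68 to 10.90 in wild type arrays. Its count of rises was 0 with any 1 array left out other than wild type array 2_2, and 0 with the most variable probe sets. None of the 4 measured oligodendrocyte markers passed over both sets, but Mbp rose in set 1 (0.87, limma adjusted p = 0.00347) and passed the genotype-by-set test (adjusted p = 0.0366). Their mean was 8.07 and 8.22 in null against 7.50 and 7.44 in wild type arrays of set 1, and of 9.98 and 10.42 against 10.25 and 10.06 in set 2. Endothelial, microglial and erythrocyte markers averaged 4.89 to 5.79 in every array, below the array medians, and none passed. Y-linked genes (Eif2s3y, Kdm5d, Uty) had a mean of 7.90, 8.09, 6.88 and 7.10 in FoxO3 null arrays and 8.35, 8.18, 7.80 and 7.66 in wild type arrays. The null arrays were lower within each set, and within sets this mean correlated at -0.861 with genotype. A fit that holds both therefore separates them poorly and loses power. With this mean as a covariate 0 of the 33 genes passed, 15 were at an unadjusted p under 0.05, 25 were negative and their median change was -0.18. In that fit Slc2a1 was at -0.88 and Slc2a3 at -1.62 (limma adjusted p of 0.112 and 0.0777), and Foxo3 at -1.16 did not pass either (adjusted p = 0.0598).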

How the data were processed

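Total RNA of 8 secondary neurosphere samples was labelled with biotin and read on Affymetrix Mouse430_2 arrays, each with 1 sample. The authors deposited log2 expression values in 1 table. Per the submitters' processing notes, RMA made them; its version, and whether all arrays were processed together, are not given in the sources used here. RMA subtracts background, equalises the arrays' distributions and summarises probes, so a change is relative to the other genes of an array. Array medians lay between 6.27 and 6.31. Samples were grouped by title. Of 45101 probe sets, 34945 have 1 symbol in the platform annotation, 932 several and 9160 none; 64 are controls. Only the Gapdh controls were used.

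FoxO3 null and wild type arrays were contrasted on the log2 values of 18194 genes (lmFit and eBayes of limma 3.58.1, R 4.3.3), with set as a term, two-sided, with Benjamini-Hochberg adjustment over all genes and a threshold of 0.05. Sets were contrasted in a fit of set-by-genotype means. Isoenzyme pairs were compared by exact permutation. The scripts were tested on simulated data. The members, gene lists and tests were chosen with earlier results of these data known. Values in every array are given for Foxo3, for members that passed and for members of the isoenzyme pairs, with Pdk3 and Pdk4; from other lists the genes that passed are named, at most 6 a list by smallest p. The lowest correlation between arrays within a set was 0.996, the highest between sets 0.991, and no arrays were identical. Precision is limited by having 4 arrays a genotype. Alternatives covered the set term, blocks, normalization, filters, the variance model, the probe set chosen, the Y-linked mean and each array left out; for the contrasts by set, leaving out arrays, the variance trend and the filter were added after seeing the data, as were the alternatives for the other gene lists. Scanner files were not used here.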

Additional observations from a re-analysis of the deposited data

Results flagged for a closer look

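In 66 groups of 4 arrays, 2 held an array far from the other 3 by Dixon's criterion. Chance meets it in about 1 in 20 groups if the 4 values come from 1 normal distribution. Each group here mixed arrays of both sets, so that rate need not hold. Slc2a1 in wild type array 1_2 was at 11.16, with the nearest other wild type array at 11.40, a gap of 0.884 of the range. Ldha in FoxO3 null array 1_2 was at 13.20, with the nearest at 13.38, a gap of 0.888 of the range. Pdk3 had opposite directions in the sets: both FoxO3 null arrays lay below both wild type arrays in set 1 and above them in set 2. The set 2 effect exceeded the set 1 effect by 0.32, and the limma test of this difference did not pass (adjusted p = 0.514).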

How the results depend on the processing

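The count of members that fell, 6 of 33 beside 213 of all genes, varied with the fit. It was 0 with no set term (2 of all genes fell), 0 with the arrays of each set and genotype averaged (0 of all genes; 15 members at an unadjusted p under 0.05), 0 with no moderation of variances (0 of all genes; 17 unadjusted) and 0 with the mean of Y-linked genes among the terms (4 of all genes; 15 unadjusted). Foxo3 lost its call in the last 3. The count was 12 with the arrays of a set and genotype as a random block, whose estimated correlation was negative (-0.229; 457 of all genes), and 12 with a variance trend (387). It was 2 where all probe sets were adjusted together (159), and 1 to 5 with 1 array left out (80 to 164), lowest without wild type array 1_1. With the replicate block it was 4 (Slc2a1, Slc2a3, Eno2 and Pdk1), while over all genes it gave 104 lower and 29 higher, against 213 and 78 without it. Same-numbered arrays, after removal of set and genotype means, correlated at 0.118 in set 1 and at -0.11 in set 2. With 2 arrays a set and genotype each set gives 1 such correlation, which cannot decide whether same-numbered arrays were paired. The count was 4 after another quantile normalization (216), 7 after centring (222), 8 of 28 above the median level (289 of 9097) and 5 with the most variable probe sets (198). The cause of these shifts was not tested. In each of these settings 0 of the 33 rose, and their median change stayed between -0.18 and -0.10. Tested in each set alone, 2 fell in set 1 (Pfkp and Pfkfb3) and 3 in set 2 (Slc2a1, Slc2a3 and Eno2). With 1 array left out the counts were 0 to 5 in set 1 and 0 to 2 in set 2, and with the most variable probe sets 7 and 0. With a variance trend 11 and 7 fell and 1 rose in each set (Gpd1 in set 1, Gpd2 in set 2), and above the median level 10 and 1 fell and Gpd2 rose in set 2; these 2 settings were chosen for the sets after seeing the data. The genotype-by-set test passed for 3 members with a variance trend.

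Signs turned in these cases: Pfkfb2 was at 0.055 with its most variable probe set, Pdk2, at -0.39 without a covariate, was at 0.053 and Gpd2 at -0.046 with the Y-linked covariate, and Pdk3 ran from -0.12 to 0.0027 with 1 array left out. Pdk1 against Pdk2 was at -0.38 with the most variable probe sets, and from -0.11 to 0.10 with 1 array left out, where Gpd1 against Gpd2 ran from -0.25 to 0.43. Of 498 repeats for 25 named genes, 408 kept direction and side of the threshold, 67 lost the call, 18 gained it and 5 turned.

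The p-values are limited by 4 arrays a genotype of unknown independence.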
